A study of Saccharomyces cerevisiae with 6 samples.

Results

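The genes described here make inositol and the phospholipids of yeast membranes, carry inositol into the cell, or control these steps. They were chosen by their systematic names, without regard to measured values, and are *INO1* (YJL153C), *OPI3* (YJR073C), *CHO1* (YER026C), *CHO2* (YGR157W), *PSD1* (YNL169C), *PSD2* (YGR170W), *ITR1* (YDR497C), *INO2* (YDR123C), *INO4* (YOL108C) and *OPI1* (YHL020C). All 10 were found among the 5657 genes of the table, each with 1 of its 5705 probe sets. *S. cerevisiae* F12, a strain of industrial background that was genetically modified for making ethanol from lignocellulose, was fermented in YNB medium with glucose and ammonium sulfate. The treated cultures held 40% insoluble solids (IS, w/w), in the form of glass beads, and the control cultures had none (0% IS). Both were sampled at 4 h and hybridized on 3 Affymetrix yeast arrays per condition. The inositol content of the medium is not given in the sources used here.

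Yeast builds inositol from glucose 6-phosphate and joins it to CDP-diacylglycerol to form phosphatidylinositol. From the same CDP-diacylglycerol it makes phosphatidylserine, which is decarboxylated to phosphatidylethanolamine and then methylated with S-adenosylmethionine (AdoMet) to phosphatidylcholine. Many genes of these routes carry an inositol-sensitive promoter element, on which the Ino2-Ino4 pair of basic helix-loop-helix activators acts. The repressor Opi1 is held at the endoplasmic reticulum by phosphatidic acid when inositol is scarce and acts against Ino2 in the nucleus when inositol is plentiful.

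The table holds the limma comparison of both conditions and no values per array. For each probe set it gives a log2 difference, taken here as 40% IS minus 0% IS, and the authors' mean log2 signal after RMA normalization over the 6 arrays. The mean of each condition follows from these numbers because both have 3 arrays. The residual SD, the spread between arrays of the same condition, was recovered from the moderated t. Over all probe sets its median was 0.099, and the median 95% interval of a difference reached 0.18 to either side, a precision limited by the number of arrays. The arrays are described as independent RNA replicates. Whether each RNA came from its own culture is not stated, so the p-values may measure only the spread between RNA preparations.

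With 40% IS, the genes split in direction. *PSD1*, *INO2* and *CHO1* rose, and *INO4*, *OPI3* and *INO1* fell, all at an adjusted p below 0.05 by limma. *PSD1*, for the mitochondrial phosphatidylserine decarboxylase, changed most (1.62-fold), and the other called genes stayed between 0.842-fold and 1.29-fold. *CHO2*, *PSD2*, *ITR1* and *OPI1* were not called. The 6 called of 10 compare with 46.9% called among all probe sets, and the 3 higher and 3 lower with 18.1% higher and 28.8% lower. With all differences centred on their median of -0.05, the split became 4 higher and 1 lower: *OPI1* then passed (adjusted p = 0.049), while *INO1* (adjusted p = 0.0944) and *OPI3* (adjusted p = 0.0547) no longer did.

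The stricter rules called few genes of this group, as they did of all probe sets. At an adjusted p below 0.001, *PSD1* alone (1 of 10) was called, near the share of 8.85% among all probe sets. None of the 10 had an absolute log2 difference above 1, a size that 2.31% of all probe sets reached with an adjusted p below 0.05. The median log2 difference of the 10 was -0.18, against -0.05 over all probe sets, and their median absolute difference was 0.24 against 0.22. These values lay close to those of the whole table.

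**Figure D1:**
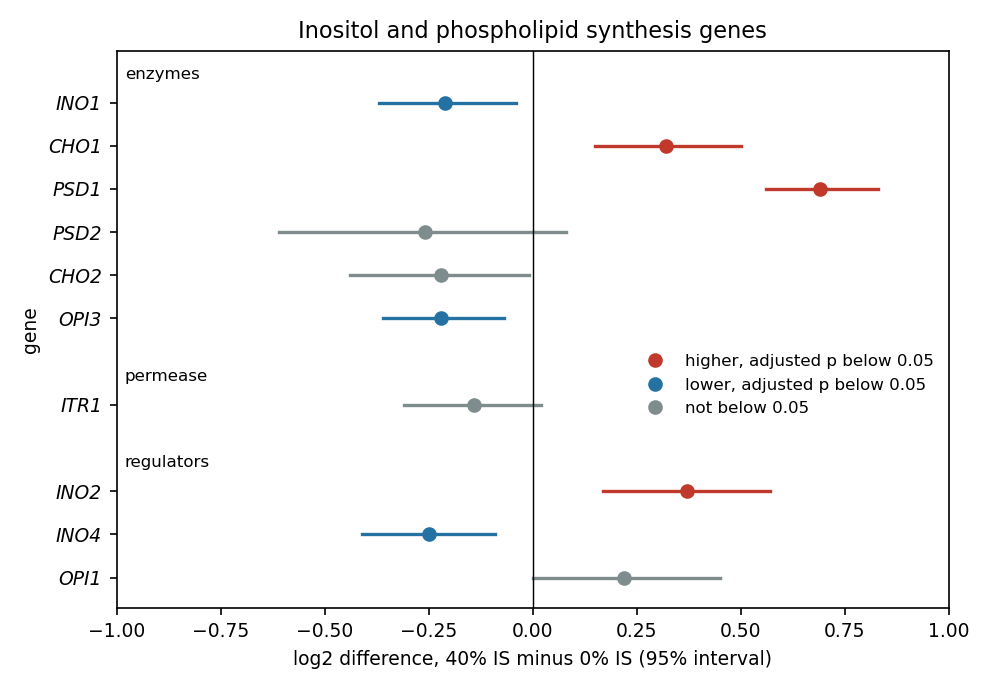
Log2 difference (40% IS minus 0% IS) of each gene on the horizontal axis, with its 95% interval as a line. Points are ordered by role and coloured by direction where the adjusted p was below 0.05. The point of *PSD1* is the highest, at 0.69 (95% interval 0.56 to 0.83). The other intervals lie between -0.61 and 0.57, and that of *INO2* (0.17 to 0.57) slightly overlaps that of *PSD1*.

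*INO1* encodes inositol-3-phosphate synthase, the enzyme that commits glucose 6-phosphate to inositol and the classical target of Ino2 and Ino4. Its mean log2 signal was 13.08 with 0% IS and 12.87 with 40% IS, with a residual SD of 0.079. The signal was thus slightly lower with solids (0.865-fold), with a log2 difference of -0.21 and a 95% interval from -0.37 to -0.04. The adjusted p was 0.0431 by limma, close to the threshold. It was also lost in a plain equal-variance test that shares no information between probe sets (adjusted p = 0.0753).

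*CHO1* encodes phosphatidylserine synthase, which joins serine to CDP-diacylglycerol. Its mean log2 signal rose from 11.71 with 0% IS to 12.03 with 40% IS, a log2 difference of 0.32 (95% interval 0.15 to 0.50, adjusted p = 0.0107 by limma). This difference was 3.49 times the residual SD of 0.092.

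The next step has a pair of enzymes in different places. *PSD1* encodes the decarboxylase of the mitochondrial inner membrane, and *PSD2* that of the endosome and Golgi. For *PSD1* the mean log2 signal was 9.75 with 0% IS and 10.44 with 40% IS, and the residual SD was 0.044. Its log2 difference was 0.69 (95% interval 0.56 to 0.83, adjusted p = 0.000155 by limma), the widest gap relative to spread in this group at 15.8 residual SDs. Only 136 of the 5705 probe sets had a larger positive difference. For *PSD2* the means were 8.67 and 8.40, in the opposite order, and the residual SD of 0.236 was the largest of the 10. The log2 difference of *PSD2* was -0.26 with a 95% interval from -0.61 to 0.08, which includes 0 (adjusted p = 0.182 by limma). The intervals of *PSD1* and *PSD2* did not overlap, but the difference between these genes was not tested.

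*CHO2* and *OPI3* encode the methyltransferases that turn phosphatidylethanolamine into phosphatidylcholine, *CHO2* for the initial methylation and *OPI3* for those that follow. The mean log2 signal of *OPI3* went from 12.78 with 0% IS to 12.56 with 40% IS. Its log2 difference of -0.22 (95% interval -0.36 to -0.07) passed the test with an adjusted p of 0.0234 by limma. *CHO2* had the same log2 difference, -0.22, from means of 11.84 and 11.62. With its residual SD of 0.128, against 0.054 for *OPI3*, the adjusted p was 0.0851 and the 95% interval ran from -0.44 to -0.01. The enzymes of methylation therefore had equal differences on the log2 scale and differed in spread.

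*ITR1* encodes the major inositol permease of the plasma membrane. Its mean log2 signal was 12.78 with 0% IS and 12.63 with 40% IS. The log2 difference of -0.14 (95% interval -0.31 to 0.02) did not pass, with an adjusted p of 0.132 by limma. The interval allows values from 0.807-fold to 1.01-fold.

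The regulators did not move together. *INO2*, the activator subunit that carries the activation domain, had mean log2 signals of 8.51 with 0% IS and 8.88 with 40% IS. Its log2 difference was 0.37 (95% interval 0.17 to 0.57, adjusted p = 0.0105 by limma), or 1.29-fold. The plain equal-variance test put *INO2* at the threshold (adjusted p = 0.05), not below it. *INO4*, its binding partner, went the other way, from 8.63 to 8.38. Its log2 difference was -0.25 (95% interval -0.41 to -0.09, adjusted p = 0.0205 by limma). The intervals of the partners did not overlap, and the difference between them was not tested. *OPI1*, the repressor, had means of 10.17 and 10.39 and a log2 difference of 0.22 (95% interval 0.00 to 0.45) with an adjusted p of 0.0879.

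**Figure D2:**
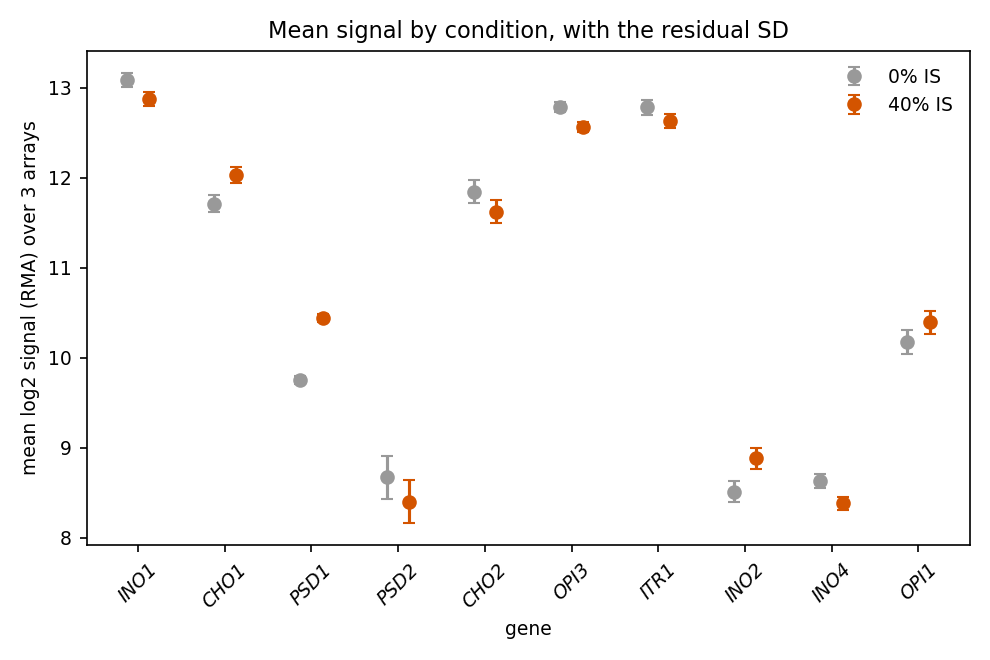
Mean log2 signal (RMA) over 3 arrays on the vertical axis for each gene with 0% IS (grey) and 40% IS (orange), computed from the authors' mean and the log2 difference. Bars are 1 residual SD, and the bars of the conditions lie clear of each other for *INO1*, *CHO1*, *PSD1*, *OPI3*, *INO2* and *INO4*, and overlap for *PSD2*, *CHO2*, *ITR1* and *OPI1*. Levels of different genes are not comparable, because each probe set has its own brightness.

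Measured against the spread between arrays, 6 of the 10 differences exceeded 2 residual SDs, as did 53.0% of all probe sets. The 6 were the called genes, from 2.64 residual SDs for *INO1* to 15.8 for *PSD1*. Among the genes that were not called, *PSD2* had the smallest ratio (1.12) although its log2 difference was larger in size than those of *INO1*, *OPI3* and *INO4*. The mean log2 signals over the 6 arrays lay between 8.50 (*INO4*) and 12.98 (*INO1*), all above the lower quartile of the table (8.03). Therefore none of the 10 was a dim probe set.

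**Figure D3:**
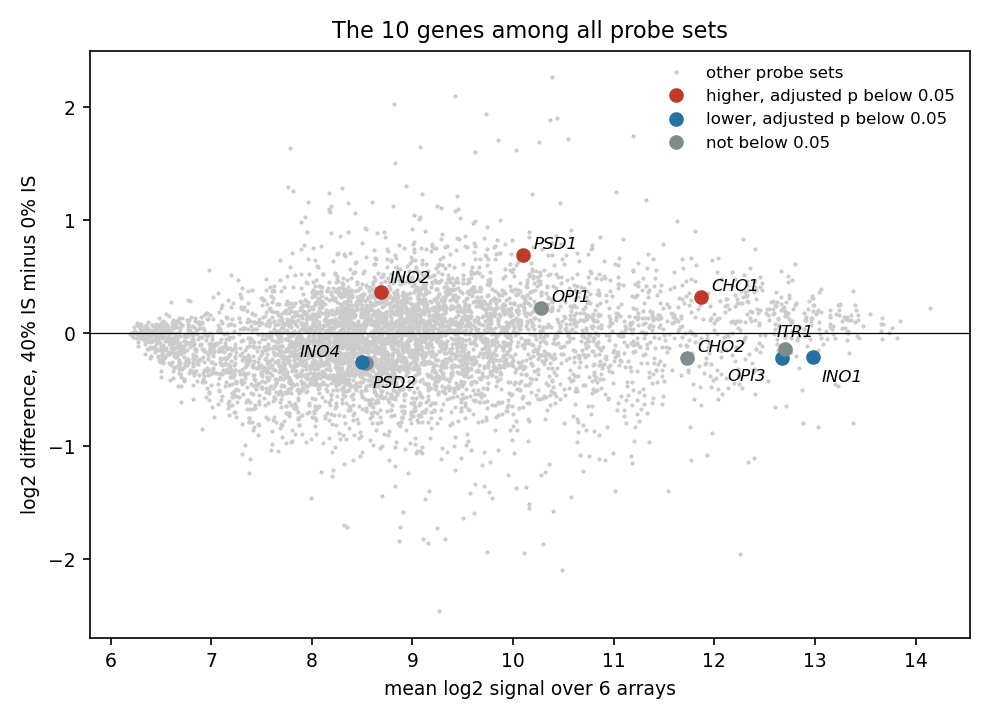
Log2 difference (40% IS minus 0% IS) against the authors' mean log2 signal for all probe sets (light grey), with the 10 genes in colour by direction of the call. All 10 lie within the cloud at mean log2 signals from 8.50 to 12.98, with *PSD1* towards its upper side, where 136 of the 5705 probe sets lie higher.

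The other genes of phospholipid metabolism were followed in lists by function. The 54 genes in these lists included 10 that rose and 16 that fell (adjusted p below 0.05), which is 48.1% called, close to the 46.9% of all probe sets. Their median log2 difference was -0.11. Differences ranged from -0.79 (*PLB1*) to 0.80 (*DPP1*), none above 1 in size.

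The 15 genes of phosphatidic acid and CDP-diacylglycerol showed 3 higher and 3 lower, which is 40% called, against 46.9% of all probe sets. *CDS1*, for the CDP-diacylglycerol synthase that feeds *CHO1*, rose with a log2 difference of 0.49 (adjusted p = 0.0022 by limma). *DPP1*, for a vacuolar diacylglycerol pyrophosphate phosphatase, rose most in all lists (0.80, adjusted p = 0.000191). The acyltransferases that begin glycerolipid synthesis had opposite signs, with *SCT1* at 0.34 (adjusted p = 0.0388 by limma) and *GPT2* at -0.45 (adjusted p = 0.0326). The difference between *SCT1* and *GPT2* was not tested. *NEM1*, a subunit of the phosphatase that activates the phosphatidate phosphatase Pah1, was lower (-0.43), as was *APP1*, for another phosphatidate phosphatase (-0.28). The 9 others lay between -0.21 and 0.19 and were not called.

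In the list of phosphatidylinositol and cardiolipin, 2 of 6 genes were called (33.3%, against 46.9% of all probe sets). Both of them were higher, where 18.1% of all probe sets were, and the list itself was not tested. *GEP4*, for the mitochondrial phosphatase that forms phosphatidylglycerol, had a log2 difference of 0.68 (adjusted p = 0.000294 by limma), near that of *PSD1*. *CLD1*, for a cardiolipin deacylase, had one of 0.38. *PIS1*, the phosphatidylinositol synthase that uses the product of the inositol route, was at 0.11 with a 95% interval from -0.16 to 0.38 and was not called.

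The Kennedy pathway rebuilds phosphatidylethanolamine and phosphatidylcholine from ethanolamine and choline. Of its 6 genes, *CPT1* (cholinephosphotransferase, 0.52) and *ECT1* (the enzyme that forms CDP-ethanolamine, 0.30) rose, and *CKI1* (choline kinase) fell with a log2 difference of -0.29. That is 50% called, near the 46.9% of all probe sets. In the list of transporters and inositol phosphatases, 60% were called. There *HNM1*, the choline and ethanolamine permease, rose (0.55, adjusted p = 0.00814 by limma). *INM1* and *INM2*, for the inositol monophosphatases that act directly after Ino1, fell with log2 differences of -0.69 (95% interval -0.97 to -0.40) and -0.47 (95% interval -0.77 to -0.17). Hence *INO1*, *INM1* and *INM2*, the genes of inositol synthesis from glucose 6-phosphate, were all lower with solids, although *INO1* lost its call on centring and in the plain equal-variance test. *ITR2*, the minor inositol permease, was at -0.06 and was not called.

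Of 8 genes of phospholipid breakdown and of the reuse of its products, 5 fell and 0 rose, where 28.8% of all probe sets fell and 18.1% rose. Their median log2 difference was -0.28 against -0.05 over all probe sets, and the list itself was not tested. *PLB1*, for phospholipase B, had a log2 difference of -0.79 (95% interval -0.95 to -0.64, adjusted p = 0.000151 by limma), and *GDE1*, for a glycerophosphocholine phosphodiesterase, one of -0.70 (adjusted p = 0.000446). *PLB2* (-0.22) and the phospholipase D gene *SPO14* (-0.30) moved less. *GPC1* (-0.42) encodes an acyltransferase that reuses glycerophosphocholine. *PLB3*, at 0.23, was not called.

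Among 6 genes of lipid transfer and endoplasmic reticulum contact, *UPS1* (0.30) and *MDM35* (0.31), whose products form a carrier of phosphatidic acid between mitochondrial membranes, rose. *UPS2*, whose product carries phosphatidylserine towards Psd1, was at 0.21 and was not called (adjusted p = 0.0654). *SCS22* fell with a log2 difference of -0.39, whereas its homolog *SCS2*, for the protein that holds Opi1 at the endoplasmic reticulum, was at -0.10 and was not called. In this list 50% were called, near the 46.9% of all probe sets. Of all probe sets 46.9% were called, 28.8% lower and 18.1% higher. Of 8 further regulators, not tested as a list, 4 (50%) were called, all of them lower. They were *MGA2*, an activator of the fatty acid desaturase gene *OLE1* (-0.64, adjusted p = 0.000249 by limma), *SIN3*, the histone deacetylase scaffold (-0.38), *INO80*, the chromatin remodeller (-0.27), and *IRE1*, the sensor of the unfolded protein response (-0.27).

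The methyl donor and the fatty acid genes adjoin these routes. Of the 4 genes of AdoMet supply, *SAM1*, for an AdoMet synthetase, fell with a log2 difference of -0.54 (95% interval -0.97 to -0.11, adjusted p = 0.0441 by limma), and the others lay between -0.17 and 0.10. Of 4 fatty acid synthesis genes that Ino2 and Ino4 also control, *FAS2* (-0.41), *ACC1* (-0.38) and *FAS1* (-0.20) fell, and *ACS2* was at -0.18 and was not called. The share that fell was 25% in the AdoMet list and 75% in the fatty acid list, against 28.8% of all probe sets. With 4 genes in each, neither list was tested as a whole.

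**Figure D4:**
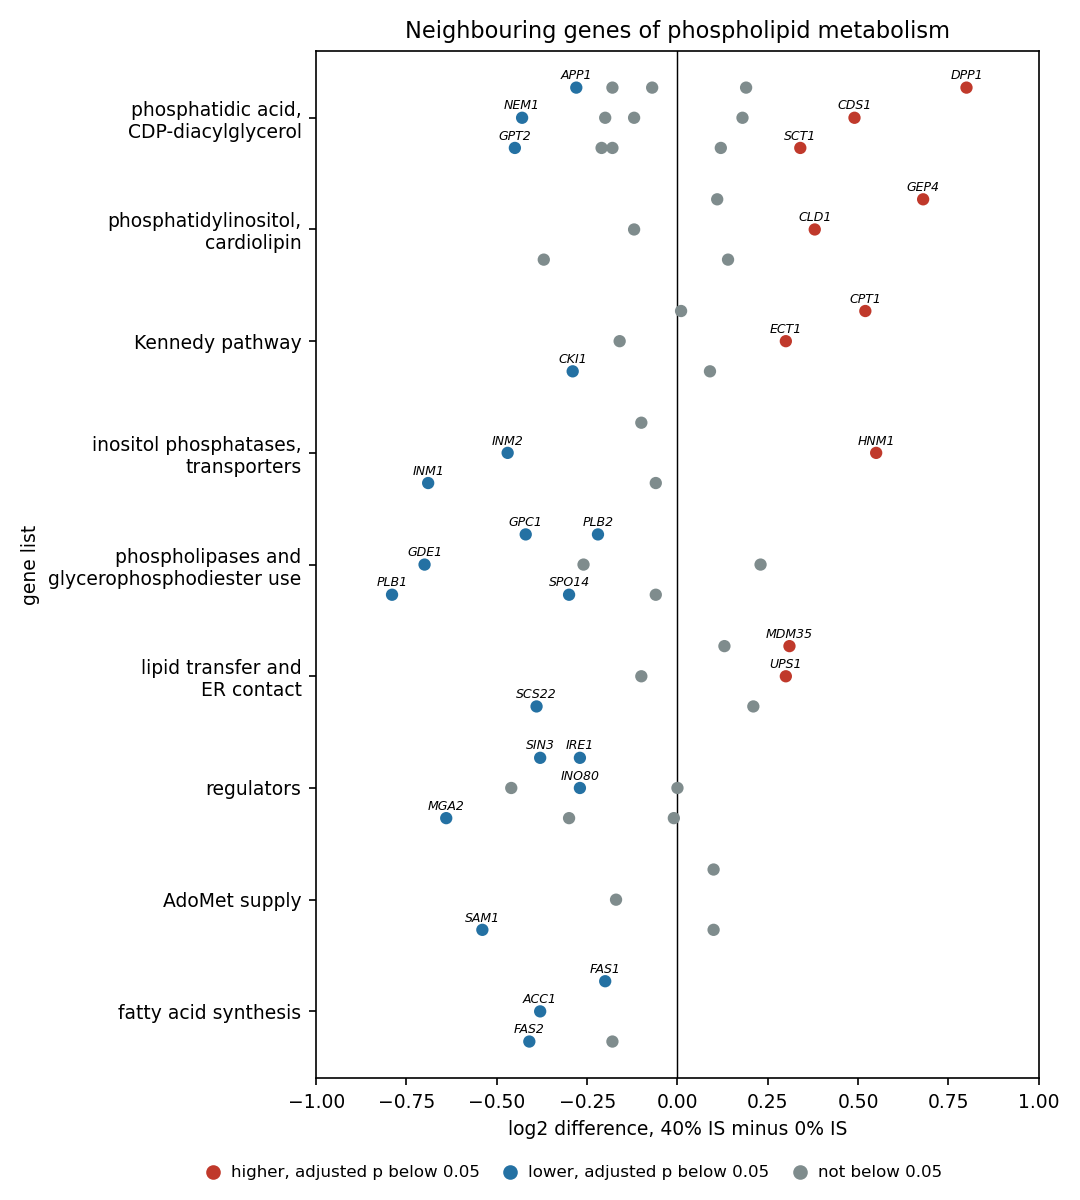
Log2 difference (40% IS minus 0% IS) of 62 neighbouring genes on the horizontal axis, 1 row of points per gene list, with names on the genes that had an adjusted p below 0.05. Called genes lie on both sides of 0 for phosphatidic acid, the Kennedy pathway, transporters and lipid transfer, on the upper side alone for phosphatidylinositol and cardiolipin, and on the lower side alone for phospholipid breakdown and reuse, regulators, AdoMet supply and fatty acid synthesis.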

How the data were processed

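For the Affymetrix Yeast Genome 2.0 arrays, the authors ran RMA in Expression Console and tested 40% IS against 0% IS with limma. Their deposited table gives, per probe set, the log2 difference and mean log2 signal, the moderated t (a score), and p-values before and after adjustment; its log-odds column was not used. It does not state the sign, which was set so that 9 sulfur genes described as induced are positive (9 of 9) and 13 storage sugar and pentose phosphate genes described as repressed are negative (13 of 13).

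The limma result was the main test, adjusted by Benjamini-Hochberg over all 5705 probe sets, and a recomputed adjustment differed by at most 5.13e-09. Thresholds were an adjusted p below 0.05, alone or with an absolute log2 difference above 1 as in the limma step of the methods, and 0.001, which the methods used with Piano and which was applied here to the limma values. The 95% intervals use the 7.58 degrees of freedom that t and p imply. Residual variances (4 degrees of freedom) were recovered by removing the prior (3.58 degrees of freedom) from the posterior variances, a step tested on simulated data. Alternatives were limma with trend and robust options, a plain equal-variance test, treat at 0.5, no dim probe sets (mean log2 signal below 8.03), 1 probe set per gene, and centring (R 4.3.3, limma 3.58.1). Names came from RefSeq (GCF_000146045.2 R64), which held 5692 of the 5705 rows. Named are the 10 genes and every listed gene with an adjusted p below 0.05. *PIS1*, *ITR2*, *PLB3*, *UPS2*, *SCS2*, *ACS2*, *PGS1* and *TAM41* were added after their values were seen. The genes and lists were chosen with earlier results of these data known. A planned promoter search was not run, since no promoter sequences were used here.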

Additional observations from a re-analysis of the deposited data

How the results depend on the processing

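The number of the 10 genes called at an adjusted p below 0.05 stayed between 4 and 6 under every alternative but treat at a minimum of 0.5, which left 0. At an adjusted p below 0.001, the plain equal-variance test and treat each left 0 in place of 1. The number above 1 on the log2 scale was 0 throughout. Of the 62 neighbouring genes, the 30 called became 19 in the plain equal-variance test and 2 with treat. Among 60 values of single genes under the alternatives, 49 kept direction and side of the threshold, 10 kept direction and lost the call, and 1 (*OPI1*, centred) gained it. *INO1* and *INO2* lost it in the plain test, *INO1* and *OPI3* on centring, and all 6 called genes with treat, where *PSD1* had an adjusted p of 0.129. Treat asks for a difference shown to exceed 0.5. The 95% interval of *PSD1* (0.56 to 0.83) lies above that size, and its call was lost after adjustment over all probe sets. The cause of the losses was not tested. No paired analysis was possible because the table carries no values per array, and leaving out single arrays was not run for the same reason. The element search in promoters was not run. The number of arrays limits the precision, with a median interval of 0.18 to either side of a log2 difference.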

Other observations

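Set in the order of the reactions from the formation of CDP-diacylglycerol to phosphatidylcholine, a grouping made after the values were seen, 3 of 6 genes rose and 1 fell. That is 50% higher and 16.7% lower, where 18.1% of all probe sets rose and 28.8% fell (adjusted p below 0.05). The grouping itself was not tested, and its 3 higher genes include *CDS1*, whose product forms CDP-diacylglycerol. *TAM41*, listed with *CDS1* under phosphatidic acid and CDP-diacylglycerol, was left out. It was at -0.20 and was not called (adjusted p = 0.0804 by limma). *CDS1* (0.49), *CHO1* (0.32) and *PSD1* (0.69) were higher with 40% IS. *PSD2*, for the same step as *PSD1*, was at -0.26 and was not called (adjusted p = 0.182 by limma). The methyltransferase genes *CHO2* and *OPI3* both had log2 differences of -0.22, of which that of *OPI3* passed. In the alternative route to phosphatidylcholine, *CPT1* (0.52), for the last step, was higher and *CKI1* (-0.29), for choline kinase, was lower. The 3 genes of the Kennedy pathway that were not called lay between -0.16 and 0.09. Differences between the genes were not tested.

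Of 10 genes of these lists whose products work in mitochondria, also grouped after the values were seen, 5 rose and 0 fell (adjusted p below 0.05). That is 50% called, near the 46.9% of all probe sets, of which 18.1% rose and 28.8% fell. The genes had a median log2 difference of 0.25 against -0.05 over all probe sets. The 5 were *PSD1*, *GEP4*, *CLD1*, *MDM35* and *UPS1*. The gene of this grouping with the lowest value was *PGS1* (-0.37, 95% interval -0.74 to 0.00), which was not called.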
